A study of Mus musculus with 15 samples.

Results

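A set of 10 Wnt pathway genes was followed in mouse adipocytes given forskolin or rosiglitazone. They are 4 Wnt ligands (Wnt16, Wnt10b, Wnt5a and Wnt11), 3 R-spondins (Rspo1, Rspo2 and Rspo3), 2 secreted Frizzled-related proteins (Sfrp1 and Sfrp2) and Axin2. The genes were taken by symbol from a fixed list that was drawn up with earlier results of these data known. All 10 are among the 24421 gene symbols of the count table. Of these, 9 passed the filter on low counts and were tested, and Rspo1 had no count in any library.

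The cells were MAP cells, mouse adipocyte progenitors that had been immortalized, and they were differentiated into adipocytes before RNA sequencing. The 5 groups of 3 libraries each were forskolin for 4 h (FSK4h), 1 day (FSK1D) and 3 days (FSK3D), rosiglitazone for 3 days (Rosi3D), and vehicle. Forskolin activates adenylyl cyclase and so raises cyclic AMP, and rosiglitazone activates the nuclear receptor PPARγ; both were used to bring on browning, the gain of heat-producing features by fat cells. Per the labels' protocols every group, vehicle included, had first been induced for 2 days with insulin, isobutylmethylxanthine (500 µM), dexamethasone (1 µM) and rosiglitazone (1 µM) and then kept for 2 days in insulin and rosiglitazone. Treatment began at day 7 to 8. The doses of forskolin and of the later rosiglitazone, and the harvest time of the vehicle cells, were not found in the labels. With 1 vehicle group for all treatment times, time in culture and length of treatment cannot be told apart. The labels do not say whether libraries of 1 group are separate cultures, so p-values here measure a spread between libraries that may be technical only.

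Wnt proteins are secreted ligands that bind Frizzled receptors. With the co-receptors Lrp5 and Lrp6 they stabilize β-catenin, which enters the nucleus and acts with Tcf and Lef factors, while ligands such as Wnt5a and Wnt11 are best known for signalling that does not use β-catenin. R-spondins bind Lgr4, Lgr5 and Lgr6 and keep the ubiquitin ligases Znrf3 and Rnf43 from removing Frizzled, and Sfrp proteins bind Wnts outside the cell. In fat, β-catenin signalling holds precursor cells back from becoming adipocytes.

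The libraries held 14056200 to 56282582 counts, the lowest in FSK3D S11 and the highest in Rosi3D S13. Expression is given as CPM, the count relative to the library's total, after TMM scaling (a trimmed mean of log ratios that aligns libraries). All 8 mature adipocyte markers looked for were detected in Rosi3D, FSK3D and vehicle cells, with leptin at 0 counts in FSK4h and FSK1D. Vehicle libraries held 7929 to 9218 CPM of these markers in sum, FSK4h libraries 8672 to 10107, FSK1D libraries 6414 to 7002 and FSK3D libraries 13991 to 14047. The sum was 18685 to 19933 CPM in Rosi3D. Of 8 progenitor markers Pdgfra, Pdgfrb and Ly6a were abundant beside them, while Dpp4, Pi16, Cd34, Thy1 and Dlk1 averaged at most 2.86 CPM in any group. Markers of macrophages summed to at most 5.58 CPM and those of endothelial cells to at most 9.41. In such bulk samples fewer cells of a type and less RNA per cell cannot be told apart.

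All 10 genes are protein coding, and their positions below are those of GENCODE vM21 on GRCm38. The 9 detected genes were of very different abundance. Per kilobase of the gene length in the authors' table, vehicle cells held 36.8 ± 2.82 CPM per kb of Sfrp2 (mean ± SD, n = 3 here and below), far above 7.25 ± 0.375 of Rspo2, 6.58 ± 0.875 of Sfrp1, 3.93 ± 0.232 of Wnt5a and 3.17 ± 0.490 of Wnt16. Wnt10b stood at 1.15 ± 0.328, Rspo3 at 0.815 ± 0.261, Axin2 at 0.522 ± 0.0737 and Wnt11 at 0.194 ± 0.0892 CPM per kb. Treatment changed this order. In FSK3D cells Sfrp1 (8.77 ± 0.968 CPM per kb) stood beside Sfrp2 (9.68 ± 1.31), and in Rosi3D cells Wnt5a (6.20 ± 0.420) stood above Rspo2 (2.48 ± 0.406) and Sfrp1 (1.98 ± 0.563).

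**Figure D1:**
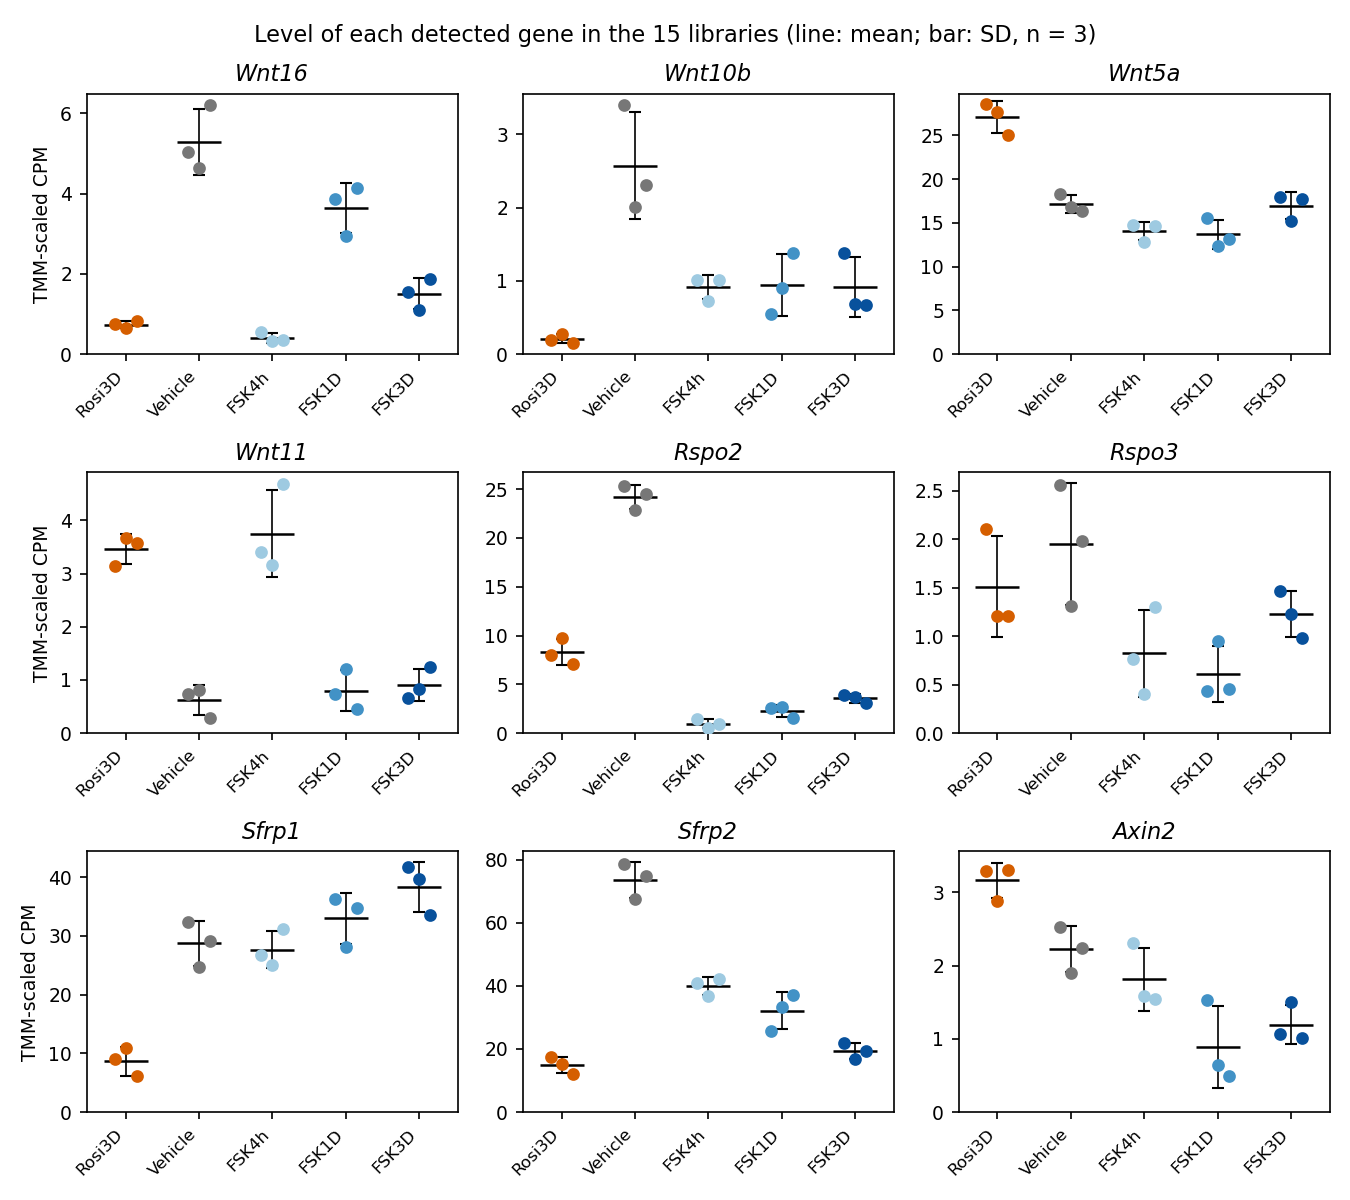
TMM-scaled CPM (vertical axis, starting at 0) of each detected gene in the 15 libraries, in the order Rosi3D, vehicle, FSK4h, FSK1D and FSK3D. Points are libraries, the line is the mean and the bar the SD of 3 libraries; Rspo2 and Sfrp2 were highest in vehicle, Wnt5a in Rosi3D, and Wnt11 in FSK4h and Rosi3D.

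Against vehicle, most of the genes fell under forskolin at each time. After 4 h Rspo2, Wnt16, Wnt10b, Rspo3, Sfrp2 and Wnt5a fell and Wnt11 rose, so that 7 of 9 tested genes were called at an adjusted p under 0.05 (edgeR's quasi-likelihood test, Benjamini-Hochberg over all 14421 genes tested), where 59% of all genes were called (28.4% higher and 30.7% lower). After 1 day 7 of 9 fell, with Axin2 in place of Wnt11, where 40.2% of all genes were called (19.5% higher and 20.7% lower). After 3 days 5 of 9 fell (Rspo2, Sfrp2, Wnt16, Wnt10b and Axin2), where 52.9% of all genes were called (25.9% higher and 27% lower). The median log2 fold change of the 9 genes was -0.88 at 4 h, -1.20 at 1 day and -0.94 at 3 days, beside -0.035, -0.019 and 0.0088 over all genes tested. With rosiglitazone 5 of 9 fell (Wnt10b, Wnt16, Sfrp2, Sfrp1 and Rspo2) and Wnt11 and Wnt5a rose, where 60.6% of all genes were called (28.6% higher and 32% lower), and the median was -1.55 beside -0.012. At 3 days of forskolin the share of the 9 genes called was near that of all genes. The list was chosen with earlier results of these data known, so these counts and medians are a description of the chosen genes. The 4 comparisons share the vehicle libraries. With library size alone in place of TMM the median of all genes at 4 h was -0.23, and 27.3% of calls were higher in place of 48.1%. None of the 7 calls among these genes changed direction with that scaling.

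**Figure D2:**
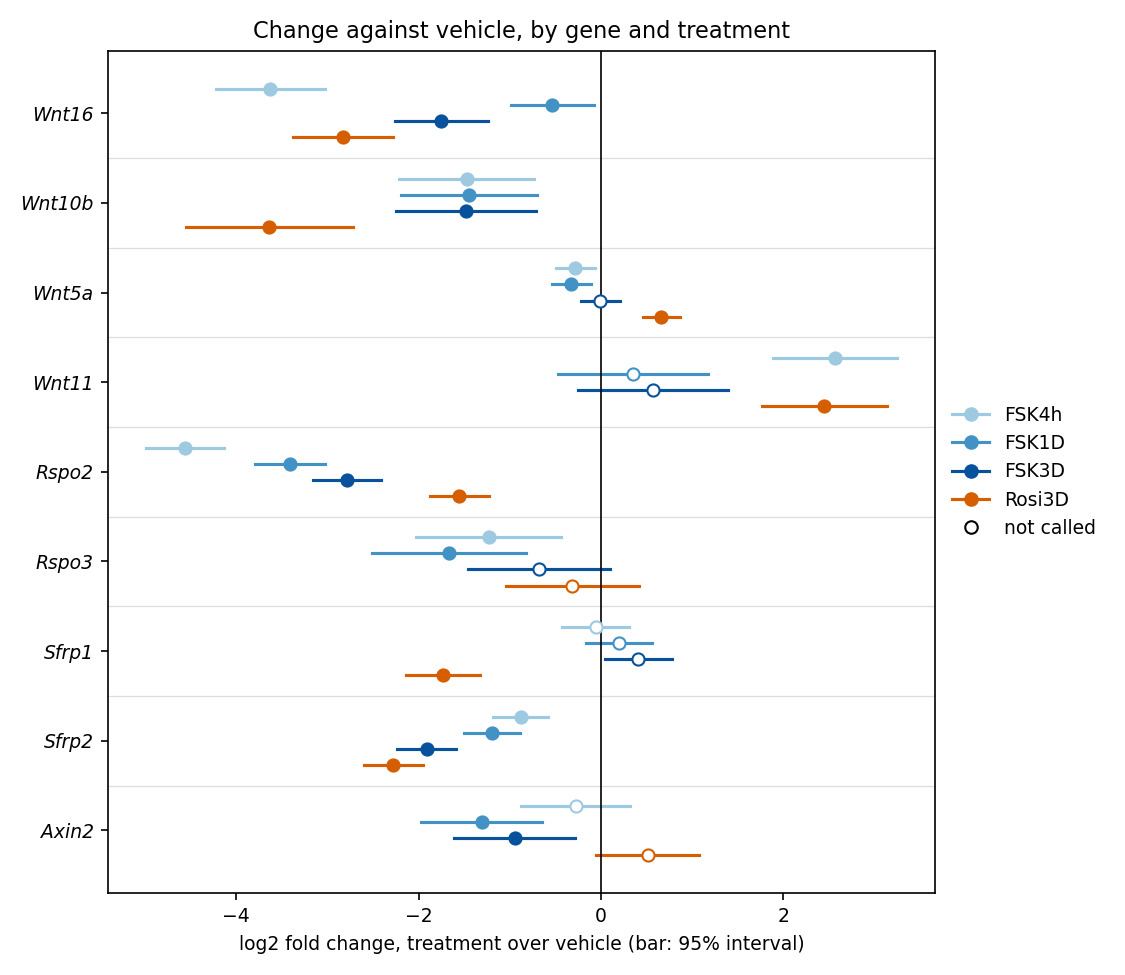
Log2 fold change of each treatment over vehicle (horizontal axis) for the 9 tested genes, with 95% intervals. Filled points were called at an adjusted p under 0.05; Rspo2, Wnt16, Wnt10b and Sfrp2 lay below 0 in all 4 treatments, and Sfrp1 was called lower in Rosi3D and was not called at any forskolin time.

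Wnt16 (chromosome 6, 22288227 to 22298522, plus strand), a ligand known for its part in cortical bone, had the most uneven time course. Its level was 5.03, 4.63 and 6.20 CPM in the vehicle libraries, 0.550, 0.324 and 0.360 in FSK4h, 3.86, 2.95 and 4.13 in FSK1D and 1.55, 1.10 and 1.88 in FSK3D. All 3 FSK4h libraries, with 20, 8 and 10 counts, lay below every other forskolin or vehicle library, and the FSK1D libraries returned close to the vehicle range without reaching it. At 4 h Wnt16 was 12.3-fold lower than in vehicle (-3.62 ± 0.27, adjusted p = 1.05e-13; log2 fold change ± standard error). Only 13 of the 14421 tested genes had a lower log2 fold change in that comparison. From 4 h to 1 day it rose 8.53-fold (3.09 ± 0.28, adjusted p = 1.49e-11), and at 3 days it was again 2.33-fold lower than at 1 day (-1.22 ± 0.24, adjusted p = 4.69e-05). Against vehicle it was 3.37-fold lower at 3 days (-1.75 ± 0.23, adjusted p = 6.40e-08). At 1 day the fall was small (-0.53 ± 0.20, adjusted p = 0.0365). That call was lost without vehicle S1 (0.0633), vehicle S3 (0.184), FSK1D S7 (0.0599) or FSK1D S8 (0.171) and with DESeq2 (0.0509), with adjusted p from 0.0140 to 0.184 over 23 alternatives.

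Rosiglitazone lowered Wnt16 as well. The Rosi3D libraries held 0.739, 0.651 and 0.817 CPM, all below the lowest vehicle library, which is 7.10-fold lower than in vehicle (-2.83 ± 0.24, adjusted p = 3.63e-12). In order of level the groups were vehicle, FSK1D, FSK3D, Rosi3D and FSK4h. Each was called apart from the next in that order (edgeR's adjusted p = 4.69e-05 to 0.0365), but 2 of these links were weak. That of vehicle and FSK1D was lost in the alternatives named above. That of Rosi3D and FSK4h (0.80 ± 0.33, adjusted p = 0.0317) rested on 77 and 38 counts and was not run under the alternatives.

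Wnt11 (chromosome 7, 98835112 to 98855195, plus strand), a ligand known for β-catenin-independent signalling in cell movement, moved the other way at 4 h. It was scarce in vehicle cells, at 0.741, 0.821 and 0.294 CPM, and reached 3.41, 3.15 and 4.68 CPM in FSK4h. The FSK1D libraries were back at 0.728, 1.21 and 0.459 and the FSK3D libraries at 0.653, 0.822 and 1.24 CPM. The FSK4h libraries thus stood above all other forskolin and vehicle libraries, while FSK1D and FSK3D overlapped vehicle. At 4 h the rise was 5.93-fold (2.57 ± 0.31, adjusted p = 8.05e-09) on 332 counts over FSK4h and 57 over vehicle. At 1 day the level was 4.67-fold lower than at 4 h (-2.22 ± 0.30, adjusted p = 1.16e-07). Neither FSK1D (0.35 ± 0.37, adjusted p = 0.497, 95% interval -0.48 to 1.17) nor FSK3D (0.57 ± 0.37, adjusted p = 0.200, -0.25 to 1.39) passed the threshold against vehicle, and these intervals leave room for a rise of more than 2-fold.

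In Rosi3D Wnt11 was at 3.15, 3.67 and 3.58 CPM, close to FSK4h and above every vehicle library. The rise against vehicle was 5.45-fold (2.45 ± 0.31, adjusted p = 1.97e-08). FSK4h and Rosi3D did not differ beyond their spread in the order of levels (log2 fold change 0.12 ± 0.25, adjusted p = 0.670), although their treatment times differ.

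The sequences upstream of Wnt11 and Wnt16 are shown because these ligands moved in opposite directions within 4 h of forskolin. Each is the 250 bases before the RefSeq transcription start (GRCm38.p6, plus strand), printed 5′ to 3′. For Wnt11 the window is chr7:98834862-98835111, at the first of its listed starts. For Wnt16 it is chr6:22287977-22288226. Capitals mark the short form of the cyclic AMP response element (TGACG, or CGTCA on the other strand) and the Tcf/Lef core (CTTTGAA or CTTTGAT, or their reverse complements).

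Wnt11: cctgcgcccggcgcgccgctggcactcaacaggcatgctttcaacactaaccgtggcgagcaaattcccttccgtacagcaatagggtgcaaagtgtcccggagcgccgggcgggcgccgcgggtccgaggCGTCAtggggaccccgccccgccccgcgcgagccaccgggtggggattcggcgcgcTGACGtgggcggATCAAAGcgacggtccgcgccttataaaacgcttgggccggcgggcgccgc

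Wnt16: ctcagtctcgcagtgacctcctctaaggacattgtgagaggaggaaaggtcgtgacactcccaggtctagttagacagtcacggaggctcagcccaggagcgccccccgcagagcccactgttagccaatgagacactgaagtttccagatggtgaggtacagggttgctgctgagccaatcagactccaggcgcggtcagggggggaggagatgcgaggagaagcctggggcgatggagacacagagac

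The Wnt11 window held 2 short elements, 119 and 63 bases before the start, and 1 Tcf/Lef core 51 bases before it. The Wnt16 window held none of these motifs. A second listed start of Wnt11 (window chr7:98838595-98838844) had 1 short element, 171 bases before that start, and the window of Wnt10b (chr15:98778151-98778400, minus strand) had 1, placed 6 bases before its start. The windows of Sfrp2, Rspo1 and Axin2 held no match. Across all 32851 RefSeq windows of this length a short element was found on either strand in 17.8%, the full element TGACGTCA in 1.55% and the Tcf/Lef core in 7.48%. The full element was in none of the 7 windows of these genes. Of the 10 genes 6 had a window in the table, and Wnt5a, Rspo2, Rspo3 and Sfrp1 did not. A match describes the letters of the window and does not show that a factor binds there.

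Wnt10b (chromosome 15, 98770712 to 98778150, minus strand), the ligand best known for holding back adipocyte formation, fell by 4 h of forskolin and stood at about that level at the later times. It stood at 3.40, 2.00 and 2.31 CPM in vehicle, 1.02, 0.728 and 1.01 in FSK4h, 0.546, 0.909 and 1.38 in FSK1D and 1.39, 0.685 and 0.668 in FSK3D. Every forskolin library lay below every vehicle library, and the 3 forskolin groups overlapped one another. The fall against vehicle was 2.77-fold at 4 h (-1.47 ± 0.33, adjusted p = 2.73e-04), 2.73-fold at 1 day (-1.45 ± 0.34, adjusted p = 6.20e-04) and 2.78-fold at 3 days (-1.48 ± 0.34, adjusted p = 4.73e-04). No pair of forskolin times differed (adjusted p = 0.961 to 0.992). The 95% interval of the log2 difference between 3 days and 4 h was -0.84 to 0.83.

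Rosiglitazone lowered Wnt10b further. The Rosi3D libraries held 11, 6 and 4 counts, or 0.194, 0.279 and 0.156 CPM, below all other 12 libraries. That is 12.4-fold lower than vehicle (-3.64 ± 0.41, adjusted p = 1.99e-09). Among the 9 genes this was the largest change with rosiglitazone.

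Wnt5a (chromosome 14, 28504750 to 28527448, plus strand), a ligand that signals through Ror2 without β-catenin, was the most abundant of these ligands in every group and changed little under forskolin. It measured 18.3, 16.8 and 16.4 CPM in vehicle, 14.8, 12.9 and 14.6 in FSK4h, 15.6, 12.4 and 13.2 in FSK1D and 17.9, 15.2 and 17.8 in FSK3D. The FSK4h and FSK1D libraries lay just below the vehicle range, and FSK3D overlapped it. The fall was 1.22-fold at 4 h (-0.28 ± 0.096, adjusted p = 0.0111) and 1.25-fold at 1 day (-0.33 ± 0.097, adjusted p = 0.00659). The call at 4 h was lost without vehicle S1 (0.0643) or FSK4h S5 (0.0872), in a range of 5.85e-05 to 0.0872 over 23 alternatives. The call at 1 day was lost without FSK1D S8 (0.0527, range 0.00153 to 0.0527). At 3 days Wnt5a was above its level at 1 day (0.32 ± 0.099, adjusted p = 0.00727) and at 4 h (0.28 ± 0.098, adjusted p = 0.0132). The first of these was lost without FSK1D S8 (0.0532, range 0.00155 to 0.0532). The second was lost without FSK4h S5 (0.0780), FSK3D S10 (0.0604) or FSK3D S12 (0.0641), with a range of 1.24e-04 to 0.0780.

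In Rosi3D Wnt5a rose to 28.6, 27.6 and 25.1 CPM, above all other libraries. It was 1.58-fold higher than in vehicle (0.66 ± 0.092, adjusted p = 1.38e-07), and this call held in all 23 alternatives.

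The mix of these 4 ligand mRNAs shifted with treatment. As a share of their summed level per kilobase, Wnt5a made up 46.6% ± 2.93 in vehicle, 63.9% ± 2.60 in FSK4h, 52.2% ± 3.98 in FSK1D and 71.0% ± 2.58 in FSK3D. The share of Wnt16 was 37.5% ± 5.06, 4.87% ± 1.26, 36.3% ± 3.40 and 16.3% ± 2.61 in the same groups, and that of Wnt11 was 2.32% ± 1.14, 23.2% ± 3.29, 4.32% ± 2.46 and 5.20% ± 1.58. In Rosi3D Wnt5a made up 79.2% ± 1.94, Wnt11 13.9% ± 1.51 and Wnt16 5.67% ± 0.876. The summed ligand level was 8.45 ± 0.606 CPM per kb in vehicle, 5.06 ± 0.539 in FSK4h, 5.999 ± 0.528 in FSK1D and 5.48 ± 0.675 in FSK3D, and it was 7.82 ± 0.354 in Rosi3D. These shares are a description and were not tested.

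**Figure D3:**
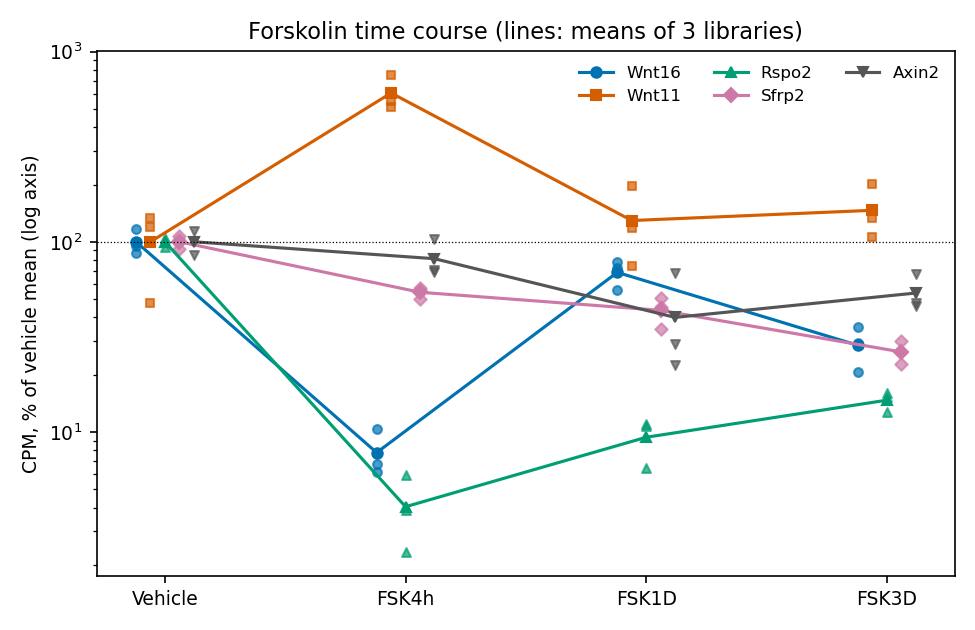
CPM of 5 genes as a percentage of their vehicle mean (vertical log axis) in vehicle, FSK4h, FSK1D and FSK3D. Small points are libraries and lines join the means of 3; Wnt16 averaged 7.78% at 4 h, 69.0% at 1 day and 28.5% at 3 days, while Rspo2 averaged 4.04%, 9.37% and 14.7%.

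Rspo2 (chromosome 15, 43020794 to 43170826, minus strand), the most abundant R-spondin in vehicle cells, fell furthest of all 9 genes under forskolin. It stood at 25.3, 22.8 and 24.5 CPM in vehicle, 1.43, 0.566 and 0.937 in FSK4h, 2.58, 2.65 and 1.57 in FSK1D and 3.87, 3.70 and 3.09 in FSK3D. The vehicle libraries were tightly grouped, and none of the 9 forskolin libraries came near them. At 4 h the level was 23.6-fold lower than in vehicle (-4.56 ± 0.19, adjusted p = 2.45e-19), and 3 of the 14421 tested genes had a lower log2 fold change. It was 10.6-fold lower at 1 day (-3.41 ± 0.17, adjusted p = 6.41e-17) and 6.88-fold lower at 3 days (-2.78 ± 0.17, adjusted p = 4.75e-15). The level at 1 day was 2.22-fold above that at 4 h (1.15 ± 0.24, adjusted p = 1.68e-04), and at 3 days it was 3.43-fold above 4 h (1.78 ± 0.23, adjusted p = 5.91e-08). The step from 1 day to 3 days (0.63 ± 0.21, adjusted p = 0.0119) was not called without FSK1D S9 (0.0973) or FSK3D S10 (0.0611), in a range of 0.00167 to 0.0973 over 23 alternatives.

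Rosiglitazone lowered Rspo2 less. The Rosi3D libraries held 8.04, 9.76 and 7.08 CPM, between the forskolin and vehicle libraries, and 2.94-fold below vehicle (-1.55 ± 0.15, adjusted p = 7.89e-11). All 5 groups differed from their neighbours in the order vehicle, Rosi3D, FSK3D, FSK1D and FSK4h.

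Rspo3 (chromosome 10, 29452416 to 29535867, minus strand), a second R-spondin, was scarce and its libraries were spread widely. It stood at 2.56, 1.31 and 1.98 CPM in vehicle, 0.770, 0.404 and 1.30 in FSK4h, 0.437, 0.947 and 0.459 in FSK1D and 1.47, 1.23 and 0.986 in FSK3D. All FSK1D libraries lay below the vehicle range, the highest FSK4h library lay just under it, and FSK3D overlapped it. Rspo3 fell 2.35-fold at 4 h (-1.23 ± 0.35, adjusted p = 0.00338) and 3.17-fold at 1 day (-1.67 ± 0.38, adjusted p = 4.93e-04). At 3 days the difference from vehicle did not pass the threshold (-0.68 ± 0.35, adjusted p = 0.103), except without vehicle S2 (0.0420), in a range of 0.0420 to 0.394. FSK3D was above FSK1D (0.99 ± 0.41, adjusted p = 0.0428), a call lost without FSK1D S7 (0.158), FSK1D S9 (0.139), FSK3D S10 (0.158) or FSK3D S11 (0.0718), with a range of 0.0113 to 0.158. The Rosi3D libraries held 2.11, 1.21 and 1.21 CPM and overlapped vehicle (-0.31 ± 0.33, adjusted p = 0.419, 95% interval -1.04 to 0.41). In the order vehicle, Rosi3D, FSK3D, FSK4h and FSK1D no neighbours differed beyond their spread.

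Rspo1 (chromosome 4, 124986430 to 125009099, plus strand), another R-spondin, had 0 counts in all 15 libraries. A count of 0 allows up to 0.106 to 0.411 CPM per library, taking a limit of 3 read pairs and so of 6 counts, which covers counting error only. The summed level of the R-spondins was 8.06 ± 0.634 CPM per kb in vehicle, 0.636 ± 0.261 in FSK4h, 0.935 ± 0.264 in FSK1D and 1.58 ± 0.222 in FSK3D. It was 3.11 ± 0.428 CPM per kb in Rosi3D. Rspo2 made up 90.0% ± 2.48 of that sum in vehicle and 47.1% ± 11.8 in FSK4h, where Rspo3 took the rest.

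Sfrp2 (chromosome 3, 83766321 to 83774316, plus strand), a secreted protein that binds Wnts, was the most abundant of the 10 mRNAs in vehicle and fell in every treatment. It stood at 78.5, 67.4 and 74.8 CPM in vehicle, 41.0, 36.7 and 42.1 in FSK4h, 25.7, 33.3 and 37.2 in FSK1D and 22.0, 16.8 and 19.3 in FSK3D. No forskolin library reached the vehicle range, FSK4h and FSK1D overlapped, and all FSK3D libraries were lower still. The fall against vehicle was 1.84-fold at 4 h (-0.88 ± 0.13, adjusted p = 6.62e-05), 2.30-fold at 1 day (-1.20 ± 0.14, adjusted p = 7.28e-06) and 3.76-fold at 3 days (-1.91 ± 0.15, adjusted p = 6.57e-08). The step from 1 day to 3 days was called (-0.71 ± 0.15, adjusted p = 0.00124), as was that from 4 h to 3 days (-1.03 ± 0.15, adjusted p = 2.78e-05). The step from 4 h to 1 day was not called (-0.32 ± 0.14, adjusted p = 0.0680), although it was in 5 of 23 alternatives (1.36e-04 to 0.364). In Rosi3D Sfrp2 was at 17.5, 15.2 and 12.2 CPM, 4.85-fold below vehicle (-2.28 ± 0.15, adjusted p = 5.93e-09).

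Sfrp1 (chromosome 8, 23411502 to 23449632, plus strand), a related Wnt-binding protein, was called lower with rosiglitazone and was not called at any forskolin time. It measured 32.4, 24.8 and 29.1 CPM in vehicle, 26.8, 25.1 and 31.2 in FSK4h, 36.2, 28.1 and 34.7 in FSK1D and 41.7, 39.7 and 33.6 in FSK3D. FSK4h and FSK1D overlapped vehicle, and the FSK3D libraries were just above it. No forskolin time was called against vehicle, with -0.056 ± 0.16, adjusted p = 0.791 at 4 h, 0.20 ± 0.16, adjusted p = 0.383 at 1 day and 0.41 ± 0.16, adjusted p = 0.0542 at 3 days. The last lay at the threshold, and 11 of 23 alternatives called it higher (1.82e-06 to 0.161). At 1 day it was called higher with no filter on low counts alone (0.0314). FSK3D was called above FSK4h (0.46 ± 0.17, adjusted p = 0.0247), but not without FSK4h S4 (0.0737), FSK4h S5 (0.0843), FSK3D S10 (0.0845) or FSK3D S11 (0.0631), in a range of 5.18e-08 to 0.0845. With rosiglitazone Sfrp1 fell to 8.97, 10.97 and 6.07 CPM, below all other libraries and 3.33-fold below vehicle (-1.74 ± 0.18, adjusted p = 2.35e-06).

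Levels of progenitor and smooth muscle markers also differed between groups, and not all in the same direction. All 8 progenitor markers looked for were in the table, and their summed level was 379 to 419 CPM in Rosi3D against 721 to 766 CPM in vehicle. Pdgfra, Pdgfrb and Ly6a made up nearly all of that sum. Dpp4 had 0 counts in the treated groups and 6 counts over the vehicle libraries, too few to show a difference. Under forskolin the sum was 623 to 707 CPM at 4 h, 908 to 946 at 1 day and 714 to 782 at 3 days, and its parts moved apart. At 3 days Pdgfrb was lower (244 ± 11.4 CPM in FSK3D against 402 ± 12.2 CPM in vehicle), while Pdgfra (264 ± 3.16 against 209 ± 2.04) and Ly6a (247 ± 30.9 against 121 ± 13.7) were higher. The 5 smooth muscle markers summed to 57.4 to 58.9 CPM in Rosi3D against 258 to 266 CPM in vehicle, a sum carried by Acta2 (37.8 ± 1.82 CPM in Rosi3D against 214 ± 4.44 CPM in vehicle) and Tagln (5.23 ± 0.598 against 34.2 ± 2.27). Cnn1 was lower too (1.08 ± 0.191 against 4.48 ± 0.555), whereas Myh11 was higher in Rosi3D (9.18 ± 1.67 CPM, against 3.28 ± 0.584 CPM in vehicle) and Des overlapped vehicle (4.75 ± 0.988 against 3.90 ± 0.859). The smooth muscle sum was 189.7 to 206, 25.8 to 27.8 and 72.4 to 78.7 CPM at the 3 forskolin times. The part of these markers in the Sfrp results was not tested.

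Axin2 (chromosome 11, 108920349 to 108950783, plus strand), a scaffold of the complex that destroys β-catenin and a widely used target gene of that pathway, was scarce. It stood at 2.53, 1.90 and 2.24 CPM in vehicle, 2.31, 1.58 and 1.55 in FSK4h, 1.53, 0.644 and 0.498 in FSK1D and 1.06, 1.51 and 1.02 in FSK3D. FSK4h overlapped vehicle, FSK1D and FSK3D lay below it, and FSK1D S7 was well above the other FSK1D libraries. Axin2 did not pass the threshold at 4 h (-0.28 ± 0.27, adjusted p = 0.386, 95% interval -0.88 to 0.32). It was 2.48-fold lower at 1 day (-1.31 ± 0.30, adjusted p = 5.48e-04; -1.96 without FSK1D S7) and 1.92-fold lower at 3 days (-0.94 ± 0.30, adjusted p = 0.00769). Between 4 h and 1 day it fell (-1.03 ± 0.31, adjusted p = 0.00440; -1.68 without FSK1D S7), a call lost without FSK4h S4 (0.0512, range 8.00e-05 to 0.0512). FSK3D against FSK1D was not called (0.36 ± 0.34, adjusted p = 0.384), but without FSK1D S7 it was called higher (1.01, adjusted p = 0.0204, in a range of 0.0204 to 0.868 over 23 alternatives). FSK3D against FSK4h was not called (-0.67 ± 0.30, adjusted p = 0.0511), although 11 of 23 alternatives called it (0.0275 to 0.266).

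The Rosi3D libraries held 3.29, 2.88 and 3.31 CPM of Axin2, all above the highest vehicle library. The difference from vehicle did not pass the threshold (0.51 ± 0.26, adjusted p = 0.0828). It was called higher with halved counts (0.0372), in a fit of Rosi3D and vehicle alone (0.0238) and without FSK1D S7 (0.0493), with a range of 0.0238 to 0.234 over 23 alternatives.

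Set side by side at 3 days, forskolin and rosiglitazone left these genes in different states. Against Rosi3D, FSK3D cells had higher Sfrp1, Wnt10b and Wnt16 and lower Wnt11, Axin2, Rspo2 and Wnt5a. That is 7 of 9 tested genes called, where 43.1% of all genes were called in this comparison (22.5% higher and 20.7% lower). Sfrp1 averaged 38.3 ± 4.23 CPM in FSK3D and 8.67 ± 2.46 CPM in Rosi3D, a 4.42-fold difference (2.14 ± 0.18, adjusted p = 5.78e-07). Wnt10b was 4.47-fold higher in FSK3D (2.16 ± 0.47, adjusted p = 2.48e-04) and Wnt16 2.11-fold higher (1.08 ± 0.28, adjusted p = 0.00180), although both were below vehicle in each treatment. Wnt11 was 3.68-fold lower in FSK3D than in Rosi3D (-1.88 ± 0.30, adjusted p = 3.89e-06), Rspo2 2.34-fold lower (-1.23 ± 0.18, adjusted p = 7.05e-07) and Wnt5a 1.59-fold lower (-0.67 ± 0.094, adjusted p = 3.53e-07). Axin2 averaged 1.195 ± 0.271 CPM in FSK3D and 3.16 ± 0.242 CPM in Rosi3D (-1.46 ± 0.29, adjusted p = 8.47e-05). Rspo3 did not pass the threshold (-0.37 ± 0.35, adjusted p = 0.431, 95% interval -1.16 to 0.42). Sfrp2 did not either (0.36 ± 0.16, adjusted p = 0.0794), but it was called higher in FSK3D in 5 of 23 alternatives (1.19e-04 to 0.255).

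**Figure D4:**
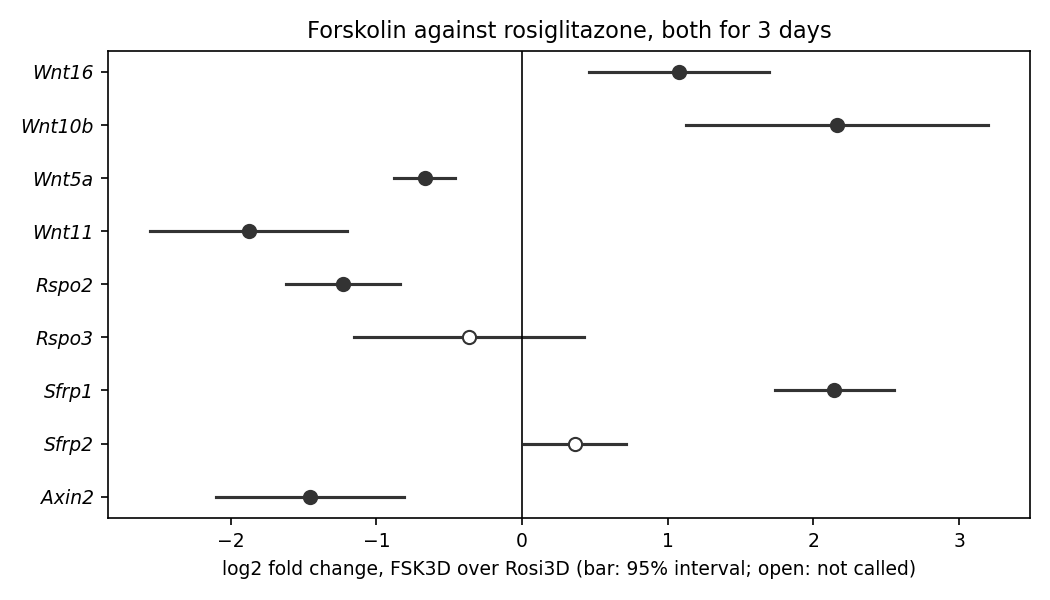
Log2 fold change of FSK3D over Rosi3D (horizontal axis) with 95% intervals for the 9 tested genes; open points were not called. Sfrp1, Wnt10b and Wnt16 lay above 0 and Wnt11, Axin2, Rspo2 and Wnt5a below it.

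Between 4 h and 1 day of forskolin Wnt16 and Rspo2 rose and Wnt11 and Axin2 fell, so 4 of 9 genes were called, where 57.3% of all genes were (28.4% higher and 28.9% lower). Between 1 and 3 days Wnt5a, Rspo2 and Rspo3 rose and Wnt16 and Sfrp2 fell. That is 5 of 9 called, where 51% of all genes were (25.2% higher and 25.8% lower). Between 4 h and 3 days 4 rose and 2 fell, where 68.5% of all genes were called (35% higher and 33.5% lower). In none of these steps did the share called among the 9 genes stand well above that of all genes. The balance of higher and lower calls over all genes depended on the scaling. With library size alone 68.8% of calls were higher from 4 h to 1 day, in place of 49.6%. From 4 h to 3 days it was 65.1% in place of 51.1%.

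Among other ligands and factors of Wnt release, 7 of 18 genes looked for were abundant enough to test. At 4 h 2 rose and 1 fell, where with library size alone 1 rose and 3 fell. Of all genes 59% were called at that time. At 1 day 1 rose and 1 fell, where 40.2% of all genes were called. At 3 days of forskolin 2 rose and 0 fell, where 52.9% of all genes were called. With rosiglitazone 2 rose and 2 fell, where 60.6% of all genes were called. Wnt2, a ligand that can act through β-catenin, was at 1.45 ± 0.233 CPM in FSK4h against 0.308 ± 0.118 CPM in vehicle (2.20 ± 0.48, adjusted p = 1.97e-04). Wnt2b rose with rosiglitazone to 8.23 ± 2.14 CPM, against 4.04 ± 1.28 CPM in vehicle (1.01 ± 0.19, adjusted p = 2.41e-05). Porcn, the enzyme that attaches the lipid Wnts need for release, rose at 3 days of forskolin to 10.6 ± 1.30 CPM, against 4.56 ± 0.378 CPM in vehicle (1.22 ± 0.14, adjusted p = 8.01e-09). Wls, the carrier that brings Wnts to the cell surface, was abundant and fell slightly with rosiglitazone (307 ± 6.25 CPM, against 401 ± 8.85 CPM in vehicle; -0.39 ± 0.042, adjusted p = 9.85e-10).

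Receptors and co-receptors moved both ways, with 15 of 16 genes tested. At 4 h 5 rose and 6 fell, where with library size alone 2 rose and 7 fell. Of all genes 59% were called at 4 h and 60.6% with rosiglitazone. The numbers that rose and fell were 3 and 7 at 1 day, 3 and 6 at 3 days, and 5 and 6 with rosiglitazone. At 1 day 40.2% and at 3 days of forskolin 52.9% of all genes were called. Fzd2, a Frizzled receptor, was at 37.3 ± 1.66 CPM in FSK4h against 85.1 ± 4.12 CPM in vehicle (-1.19 ± 0.063, adjusted p = 1.19e-17). Fzd2 averaged 45.9 ± 2.01 CPM in FSK1D, 39.7 ± 1.12 in FSK3D and 39.8 ± 3.29 in Rosi3D. Fzd4, another Frizzled, fell at 4 h (-1.14 ± 0.075, adjusted p = 3.86e-15) and rose with rosiglitazone (1.09 ± 0.069, adjusted p = 1.13e-15). Fzd5, a receptor known to bind Wnt5a, fell at 1 day (-1.15 ± 0.064, adjusted p = 1.26e-16) but was not called with rosiglitazone (0.0078 ± 0.061, adjusted p = 0.923). Ror2, the co-receptor of Wnt5a, fell at 3 days of forskolin (-0.95 ± 0.11, adjusted p = 4.12e-09) and with rosiglitazone (-0.90 ± 0.10, adjusted p = 3.98e-09). The co-receptors Lrp5 and Lrp6 rose slightly at 3 days of forskolin (0.36 ± 0.055 and 0.35 ± 0.042).

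Of 12 genes for Lgr receptors and feedback at the membrane 8 were tested. At 4 h 1 rose and 4 fell, where with library size alone 0 rose and 6 fell, and with rosiglitazone 2 rose and 5 fell. The share of all genes called was 59% at 4 h and 60.6% with rosiglitazone. The R-spondin receptor Lgr4 was at 58.9 ± 0.963 CPM in FSK4h and 60.3 ± 0.697 CPM in vehicle, a difference that was not called (-0.033 ± 0.054, adjusted p = 0.618). At 1 day it fell to 48.4 ± 2.82 CPM (-0.32 ± 0.055, adjusted p = 1.40e-05), and at 3 days it was not called (-0.036 ± 0.055, adjusted p = 0.611). Lgr6, a second such receptor, fell with rosiglitazone to 14.2 ± 1.92 CPM, against 33.0 ± 1.25 CPM in vehicle (-1.22 ± 0.10, adjusted p = 7.86e-12). Lgr5 was scarce, with 11 counts over FSK3D and 92 over vehicle (-2.64 ± 0.57, adjusted p = 1.98e-04). It was also called lower at 4 h (-1.25 ± 0.46, adjusted p = 0.0194), at 1 day (-1.87 ± 0.50, adjusted p = 0.00260) and with rosiglitazone (-2.20 ± 0.50, adjusted p = 2.47e-04). Of the ubiquitin ligases, Znrf3 was at 34.3 ± 1.499 CPM in FSK3D and 33.0 ± 0.753 CPM in vehicle (0.060 ± 0.068, adjusted p = 0.475), and Rnf43 was too scarce to test. Trabd2b, a membrane protease that inactivates Wnts, fell at 1 day (-0.90 ± 0.060, adjusted p = 1.38e-14).

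Other secreted antagonists were mostly not detected well enough to test, with 4 of 13 tested. All 4 fell with rosiglitazone, with a median of -1.20 beside -0.012 over all genes, where 32% of all genes were called lower. Under forskolin 0 rose and 3 fell at 4 h, where with library size alone 0 rose and 4 fell. At 1 day 1 rose and 2 fell, and the same numbers held at 3 days. The most abundant of the 4 was Igfbp4, which binds Frizzled and Lrp6. Its vehicle mean was 204 CPM, and after 4 h of forskolin it was 168 CPM. The later forskolin means were higher, at 372 CPM (1 day) and 447 CPM (3 days). Dkk3 was at 4.12 ± 0.626 CPM in Rosi3D against 13.2 ± 2.73 CPM in vehicle (-1.68 ± 0.16, adjusted p = 2.13e-11). Dkk3 averaged 6.26 ± 1.07 CPM in FSK4h, 4.17 ± 0.502 in FSK1D and 5.77 ± 0.598 in FSK3D. It is a member of the Dickkopf family whose action on Wnt signalling is less settled. Dkk2, a Dickkopf that binds Lrp6, fell at 3 days of forskolin (-1.57 ± 0.13, adjusted p = 3.01e-12). Sfrp4, a further Frizzled-related protein, was at 0.705 ± 0.242 CPM in Rosi3D against 2.35 ± 0.226 CPM in vehicle (-1.65 ± 0.33, adjusted p = 5.52e-05).

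Inside the cell all 26 transducer genes were tested. At 4 h 8 rose and 9 fell, and with library size alone in place of TMM 4 rose and 17 fell. With rosiglitazone 8 rose and 10 fell. Of all genes 59% were called at 4 h and 60.6% with rosiglitazone, so the shares of transducers called were near those of all genes. Lef1, a factor that acts with β-catenin and is also a target of it, was at 0.230 ± 0.172 CPM in Rosi3D against 1.92 ± 0.604 CPM in vehicle (-3.15 ± 0.44, adjusted p = 1.57e-07). Lef1 averaged 1.23 ± 0.429 CPM in FSK4h, 0.462 ± 0.106 in FSK1D and 0.527 ± 0.148 in FSK3D. Tcf7, a related factor, fell with rosiglitazone (-1.11 ± 0.27, adjusted p = 6.11e-04). Amer1, a membrane adaptor of the destruction complex, fell at 4 h (-1.40 ± 0.054, adjusted p = 1.36e-21) and rose with rosiglitazone (0.84 ± 0.050, adjusted p = 2.26e-16).

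Of the tested genes often used as readouts of β-catenin, 9 of 12 fell with rosiglitazone, where 32% of all genes were called lower. Of 22 symbols in that list, which leaves out Axin2 (not called with rosiglitazone but higher in all 3 Rosi3D libraries), 20 were in the table and 12 were tested. The list shares genes with the lists above, Lef1 and Lgr5 among them, and these are counted in each. Besides the 9 that fell with rosiglitazone 1 rose, with a median of -1.12 beside -0.012 over all genes. At 4 h of forskolin 3 rose and 6 fell, where with library size alone 2 rose and 8 fell. The numbers that rose and fell were 1 and 7 at 1 day, and 1 and 7 at 3 days. Of all genes 28.4% were called higher and 30.7% lower at 4 h. The shares were 19.5% and 20.7% at 1 day, and 25.9% and 27% at 3 days. Many of the listed target genes also answer to other signals. Ccnd1, which encodes cyclin D1, was at 10.8 ± 1.37 CPM in FSK3D against 71.3 ± 3.81 CPM in vehicle (-2.70 ± 0.10, adjusted p = 1.09e-19). Ccnd1 averaged 30.5 ± 5.33 CPM in FSK4h, 11.8 ± 0.694 in FSK1D and 12.1 ± 0.862 in Rosi3D. Its exons share 23.4% of their bases with LTO1 on the other strand, so its counts may include reads of that gene.

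**Figure D5:**
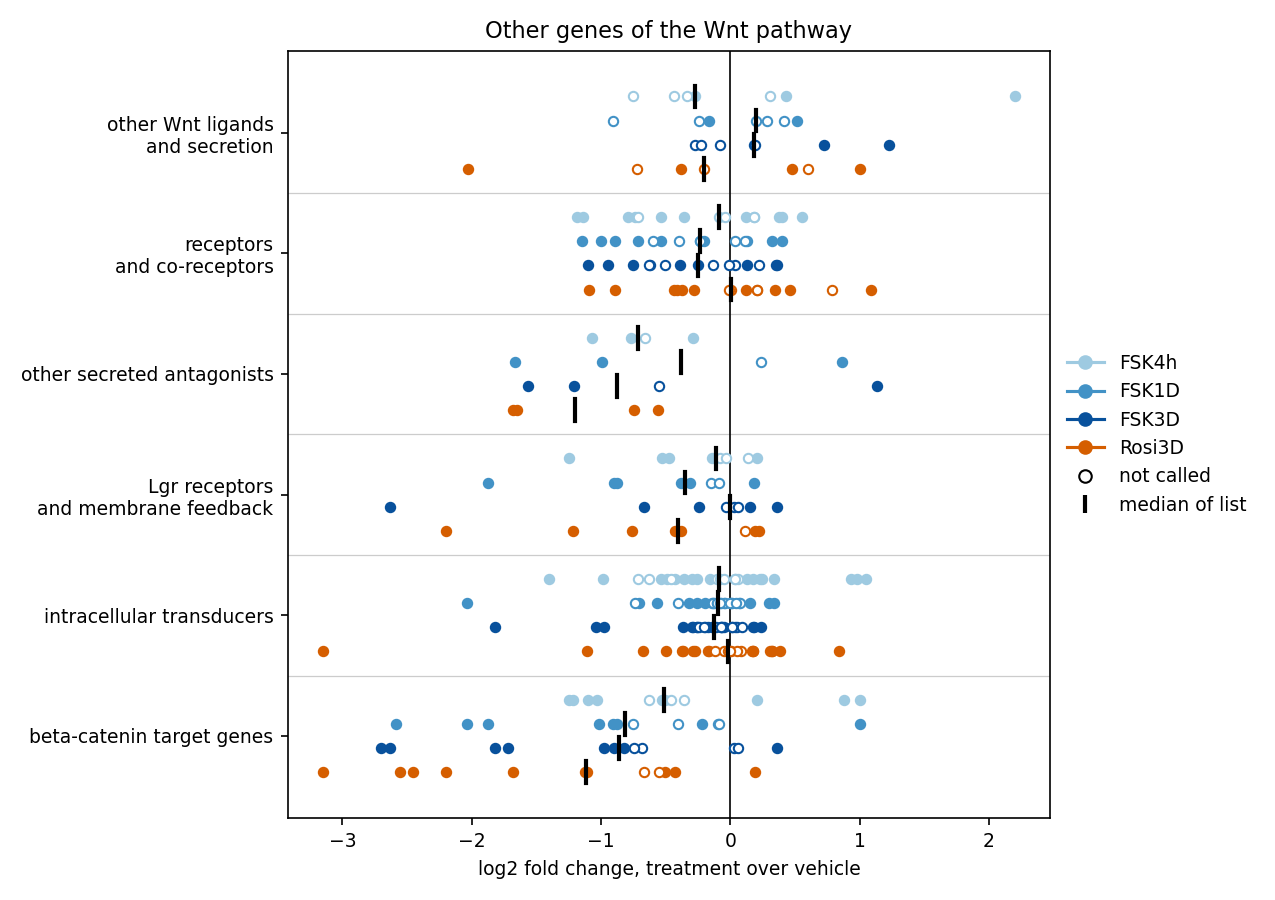
Log2 fold change over vehicle (horizontal axis) of the tested genes in 6 lists of other Wnt pathway genes, by treatment. Filled points were called, open points were not, and black bars are list medians; the medians of the secreted antagonists and of the β-catenin target genes lay below 0 in all 4 treatments.

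The genes whose level followed that of one of the 9 genes most closely over the 15 libraries (Pearson's r on log2 of CPM plus 0.5) are given as a description, since libraries of 1 group share their treatment and neighbouring values are not independent. For Rspo2 they were Il17rd (0.973), Ifit2 (0.966), Klhl22 (0.965). For Wnt16 they were Hip1 (0.958), Twf2 (0.955), Pofut1 (0.955), and for Wnt11 Tada2b (0.953), Tbrg4 (0.950), Dgke (0.950). Those nearest Wnt10b were Cmtm3 (0.961), St3gal2 (0.946), Adam22 (0.932), and those nearest Wnt5a were Oxa1l (0.959), Smpd2 (0.959), Ssh2 (0.954). Sfrp2 was followed by Cnn2 (0.983), Nnt (0.980), Cnn3 (0.979) and Sfrp1 by Nid2 (0.976), Galnt13 (0.970), Fbln1 (0.970). For Axin2 they were Nkain1 (0.922), Comtd1 (0.916), Cul4b (0.915). Rspo3 had the loosest neighbours, Anks1b (0.843), S100a13 (0.841), Mmp27 (0.839).

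Some counts could include reads of an overlapping gene, because the handling of strand is not given in the sources used here. In GENCODE vM21 the exons of Sfrp2 share 16.1% of their bases with a gene on the other strand. The share was 13.1% for Rspo3, 8.80% for Wnt11, 4.58% for Wnt5a and 3.80% for Axin2. The other 5 genes share none. Among the partner genes named, the share was 17.8% for Fzd5 and 13.7% for Lef1, also with genes on the other strand.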

How the data were processed

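The authors' deposited table holds raw read counts for 24421 gene symbols in 15 libraries, with a length per gene. Per the submitters' processing notes it was made with fastp, STAR and featureCounts on GRCm38 (mm10); versions, annotation, strand and pair handling were not found there. Its columns name the group and a running library number, so each is an unnumbered library of its group. Low counts are mostly even (407 to 539 genes per library at 1, 721 to 907 at 2), as when both mates of a pair are counted. Within groups no pair of libraries agreed within sampling noise (chi-square per degree of freedom 3.21 to 11.9). Such noise alone gives about 1, or about 2 where both mates are counted.

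From the counts, filterByExpr kept 14421 genes. TMM scaling and edgeR 4.0.16's robust quasi-likelihood test (R 4.3.3, a mean for each group and 15 libraries, which leaves 10 residual degrees of freedom) gave 8 comparisons with two-sided p-values, Benjamini-Hochberg adjusted over all tested genes and called under 0.05. The standard error is the absolute log2 fold change over the square root of F, and 95% intervals use 10 degrees of freedom. The test itself also draws on the spread of other genes and can use more degrees of freedom. An interval can therefore be wider than its p-value implies. Neighbouring groups in an order of levels were tested by the same model. Pairs outside the 8 comparisons were not run under the alternatives. Alternatives were RLE factors, library size alone, no filter, at least 1 CPM in 3 libraries, DESeq2 1.42.0, halved counts, 2-group fits, Rn45s left out, and each library left out. Positions are from GENCODE vM21. Members and lists were chosen with earlier results of these data known. All 10 members are named. Per pathway list, the 3 genes with the largest called change against vehicle and direct partners of members are named. Igfbp4, Myc, Bambi and Wisp2 are named as well, after their values were seen.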

Additional observations from a re-analysis of the deposited data

Results flagged for a closer look

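For several of these genes the level under forskolin differed between times by the direct test of one time against another (edgeR, adjusted p under 0.05). The vehicle mean does not enter these differences, and time in culture and length of treatment cannot be told apart in them. Of all genes 57.3% were called from 4 h to 1 day, 51% from 1 day to 3 days and 68.5% from 4 h to 3 days. Among the 9 tested genes 2 rose and 2 fell from 4 h to 1 day. From 1 day to 3 days 3 rose and 2 fell, and from 4 h to 3 days 4 rose and 2 fell. In no step was the share called among the 9 genes well above that of all genes. The share of all genes called in at least 1 step was not counted. From 4 h to 1 day the log2 differences were 3.09 for Wnt16, -2.22 for Wnt11, 1.15 for Rspo2 and -1.03 for Axin2. From 1 day to 3 days they were -1.22 for Wnt16, 0.32 for Wnt5a, 0.63 for Rspo2, 0.99 for Rspo3 and -0.71 for Sfrp2. From 4 h to 3 days they were 1.87 for Wnt16, 0.28 for Wnt5a, -2.001 for Wnt11, 1.78 for Rspo2, 0.46 for Sfrp1 and -1.03 for Sfrp2. Some of these calls were lost when 1 library was left out. They were Axin2 from 4 h to 1 day, Wnt5a, Rspo2 and Rspo3 from 1 day to 3 days, and Wnt5a and Sfrp1 from 4 h to 3 days. The difference for Wnt16 was called in opposite directions in the 2 successive steps. Without FSK1D S7 the same held for Axin2, with -1.68 from 4 h to 1 day and 1.01 from 1 day to 3 days. Groups of 3 libraries are too small to test for a library that stands apart.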

How the results depend on the processing

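Of 72 gene results (9 genes in 8 comparisons), 48 were called, and 39 of these stayed called in the same direction under all 23 alternatives. The other 9 lost the call under at least 1 alternative and none changed direction; the report names the library or tool beside each. Of the uncalled results, 11 were called under at least 1 alternative. Leaving out 1 library moved the number of called genes among the 9 within 6 to 7 (FSK4h), 5 to 7 (FSK1D), 5 to 6 (FSK3D) and 7 to 8 (Rosi3D) against vehicle, 7 to 8 for FSK3D against Rosi3D, 3 to 5 for FSK1D against FSK4h, 3 to 5 for FSK3D against FSK1D and 4 to 8 for FSK3D against FSK4h. The count for FSK3D against FSK1D was 3 without FSK1D S9 or FSK3D S10, where it was 5 with all libraries.

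Signs turned only in results that the report gives as not called. Wnt5a in FSK3D against vehicle (-0.0079) was 0.00027 with RLE factors, 0.0028 with no filter, 0.0076 with the 1 CPM filter, 0.00051 with halved counts and 0.00012 with DESeq2. With library size alone Wnt5a in FSK1D against FSK4h was 0.12 and Wnt10b in FSK3D against FSK4h 0.17, and Wnt10b was 0.0047 in that comparison with the 1 CPM filter. Leaving out 1 library gave -0.88 to 0.011 for Rspo3, -0.35 to 0.30 for Wnt10b and -0.15 to 0.025 for Wnt5a in FSK1D against FSK4h. In FSK3D against FSK1D it gave -0.48 to 0.35 for Wnt10b and -0.16 to 0.64 for Wnt11. It gave -0.45 to 0.22 for Wnt10b in FSK3D against FSK4h, -0.54 to 0.011 for Rspo3 in FSK3D against Rosi3D, -0.075 to 0.62 for Wnt11 in FSK1D, -0.045 to 0.054 for Wnt5a in FSK3D and -0.15 to 0.040 for Sfrp1 in FSK4h, the last 3 against vehicle. The cause was not tested. No paired analysis was possible because the columns carry no replicate number of the labels, so the fit with a replicate block was not run. Depth limits the scarce genes, with group totals as low as 21 counts for Wnt10b in Rosi3D and 38 for Wnt16 in FSK4h.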

Other observations

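The Tle co-repressors, which hold Tcf and Lef target genes silent, moved in both directions at 4 h of forskolin, and were chosen here after their values were seen. Tle1 averaged 85.1 ± 3.32 CPM in FSK4h and 41.2 ± 2.17 CPM in vehicle (1.04 ± 0.058, adjusted p = 5.03e-17), and Tle3 184 ± 6.22 and 93.6 ± 1.83 CPM in the same groups (0.98 ± 0.047, adjusted p = 9.73e-19). Tle2 fell to 7.42 ± 0.961 CPM in FSK4h, against 14.8 ± 1.08 CPM in vehicle (-0.98 ± 0.11, adjusted p = 2.41e-09), and Tle4 fell less (-0.26 ± 0.094, adjusted p = 0.0166). At 3 days of forskolin neither Tle1 nor Tle3 was called against vehicle (0.011 ± 0.061, adjusted p = 0.901, and 0.013 ± 0.048, adjusted p = 0.849, by edgeR). Igfbp4, a secreted protein that binds Frizzled and Lrp6, was also chosen after its values were seen. It averaged 447 ± 51.2 CPM in FSK3D and 138 ± 1.82 CPM in Rosi3D (1.69 ± 0.070, adjusted p = 2.96e-14), so it differed between the treatments in the same direction as Sfrp1. No other pattern was followed further.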
